A study of Homo sapiens with 6 samples.

Results

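The Ras family small GTPases were described here across 33 genes of the RAS type in the HUGO gene families, listed without RERG, and all probes that the platform annotation gives to them were taken. The array holds 43 such probes for 31 of the 33 genes, out of 47322 probes in all; NRAS and RASL10A have no probe in that annotation and were not analysed here. Expression was measured in T47D, a luminal breast cancer cell line with oestrogen receptor, grown in RPMI medium with fetal bovine serum. The cells received either a miR-489 microRNA mimic or, as control, a scrambled siRNA, and RNA was taken 72 h after transfection. Each group has 3 arrays (Illumina BeadChips, 1 colour), numbered 1 to 3. Nothing in the labels says that the replicates are separate cultures, so the p-values cover only the spread among these arrays, part or all of which may be technical. All samples come from 1 cell line, and an untransfected group was not analysed here. The design asks which genes change when miR-489 is supplied.

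Ras proteins are switches that signal when bound to GTP and stop when they hydrolyse it to GDP. Exchange factors load GTP and GTPase-activating proteins end the signal. Most members carry a lipid at the C terminus that holds them on a membrane, where they bind effectors such as RAF kinases, phosphoinositide 3-kinase, the exocyst or mTORC1. In luminal breast cancer cells they lie downstream of growth factor receptors and integrins. The subfamilies differ in task: R-Ras and Rap proteins act on adhesion, Ral proteins on exocytosis, Rheb on mTORC1, RGK proteins on calcium channels and the cytoskeleton, and the Di-Ras proteins restrain growth.

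The microRNA is shown first because it is the agent supplied, and the promoters of 3 members because RASL11B and RASL11A are close relatives that both rose and RAP2C fell. The labels do not name the arm of the mimic; the RefSeq table of GRCh38.p14 lists only the 3p arm as mature, at chr7:93483947-93483968 on the minus strand, and capitals mark its seed, bases 2 to 8.
hsa-miR-489-3p: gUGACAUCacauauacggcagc

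The promoters, also from RefSeq (GRCh38.p14), run from 250 bases before to 50 bases after the annotated gene start, written 5′ to 3′ on the strand of the gene. Of the 33 genes, 26 matched an entry, 20 of them with 1 start. RASL11B lies at chr4:52862067-52862366 (plus strand), RASL11A at chr13:27270580-27270879 (plus strand) and RAP2C at chrX:132219398-132219697 (minus strand). Capitals mark matches, on either strand, to a GC box, whose letters are GGGCGG. They also mark the CCAAT box, spelled as its name, and the E-box with the letters CACGTG.
RASL11B: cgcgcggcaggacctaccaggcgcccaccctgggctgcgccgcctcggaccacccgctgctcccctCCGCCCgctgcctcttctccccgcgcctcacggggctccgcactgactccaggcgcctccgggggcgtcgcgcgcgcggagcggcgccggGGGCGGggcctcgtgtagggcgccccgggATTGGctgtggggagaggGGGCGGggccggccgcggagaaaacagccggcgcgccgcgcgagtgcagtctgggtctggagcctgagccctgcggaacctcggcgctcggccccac
RASL11A: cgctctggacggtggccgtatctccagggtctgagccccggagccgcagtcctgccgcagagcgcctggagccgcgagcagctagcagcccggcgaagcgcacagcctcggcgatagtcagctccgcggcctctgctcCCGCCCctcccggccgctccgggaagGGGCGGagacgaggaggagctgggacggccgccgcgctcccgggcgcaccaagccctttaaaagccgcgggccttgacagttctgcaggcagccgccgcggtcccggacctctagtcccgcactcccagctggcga
RAP2C: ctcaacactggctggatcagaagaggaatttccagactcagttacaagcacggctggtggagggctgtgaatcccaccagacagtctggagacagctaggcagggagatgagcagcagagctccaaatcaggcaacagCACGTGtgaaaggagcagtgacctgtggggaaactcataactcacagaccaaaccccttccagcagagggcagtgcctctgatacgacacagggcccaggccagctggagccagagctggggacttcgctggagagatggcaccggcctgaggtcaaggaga

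RASL11B holds 3 GC boxes and 1 CCAAT box, RASL11A holds 2 GC boxes, and RAP2C holds 1 E-box. Such matches are not rare: 45.0% of the 35116 promoters of the table hold a GC box, 34.6% a CCAAT box and 7.26% an E-box. The AP-1 letters TGANTCA, found in 7.71% of promoters, had no match in these 3 windows. Nor had the cyclic AMP response element TGACGTCA, found in 1.85%, or the TATA box letters TATAAA, found in 11.5%. No searched motif overlapped another in them. The G and C content was 79.0% in RASL11B, 73.0% in RASL11A and 57.3% in RAP2C, against a median of 58.7% over all promoters of the table. The ratio of observed to expected CpG was 0.92, 0.90 and 0.21 in the same order, against a median of 0.58. A match is a string of letters and no evidence of binding.

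Mean probe intensity ran from 543 to 619 on the mimic arrays and from 526 to 571 on the scramble arrays, and 16452 to 17346 probes were detected per array. All 8 luminal breast epithelial markers looked up (ESR1, GATA3, FOXA1, KRT8, KRT18, KRT19, EPCAM and CDH1) were detected on all 6 arrays. By their brightest probes, ESR1 (-1.16 ± 0.12), FOXA1 (-1.05 ± 0.12) and KRT19 (-0.51 ± 0.11) were lower with the mimic, EPCAM (0.50 ± 0.14) and KRT8 (0.46 ± 0.15) were higher, and GATA3, KRT18 and CDH1 were not called. The 3 endothelial markers were detected on none, nor were PTPRC and CD3E of leukocytes or COL1A2 and PDGFRB of fibroblasts. CD68 and COL1A1 were detected on all 6. The brightest CD68 probe was lower with the mimic (-0.59 ± 0.12, adjusted p = 0.00717) and COL1A1 was not called (-0.06 ± 0.20); the part of these markers in the results below was not tested. Values below are normalized intensities on the log2 scale, and the test took probes with a detection p under 0.01 on 3 or more of the 6 arrays. A gene stands for its tested probe with the highest mean, and it is called at a limma adjusted p below 0.05.

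Of the 43 family probes, 16 were detected on all 6 arrays, 17 on none and 10 on some. That left 22 probes of 19 genes for the test, 10 of them called (45.5%, against 33.9% of all 17104 tested probes). None of the 22 was detected in 1 group alone. The probes of the other 12 genes were at or near background. A probe without detection does not show that its gene is silent. RAP1B and NKIRAS2 each had 1 probe detected on all 6 arrays and at least 1 detected on none. Among the 12 genes, RAP2B, RIT2, RHEBL1, DIRAS1, DIRAS2, RASD1, RASL12, RERGL, REM1 and RRAD (10 genes) had no detection on any array. Several are known for tissues other than breast epithelium: RIT2 for neurons, REM1 and RRAD for heart and muscle. RAP1A, which drives integrin adhesion and junctions, had 2 probes, one detected on 1 mimic and 1 scramble array and the other on 2 mimic arrays and no scramble array. DIRAS3, an imprinted growth inhibitor of ovary and breast, had 1 probe detected on mimic array 2 alone, at 6.47, against 4.85 and 4.76 on mimic arrays 1 and 3 and 4.53, 4.64 and 4.56 on scramble arrays 1 to 3.

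**Figure D1:**
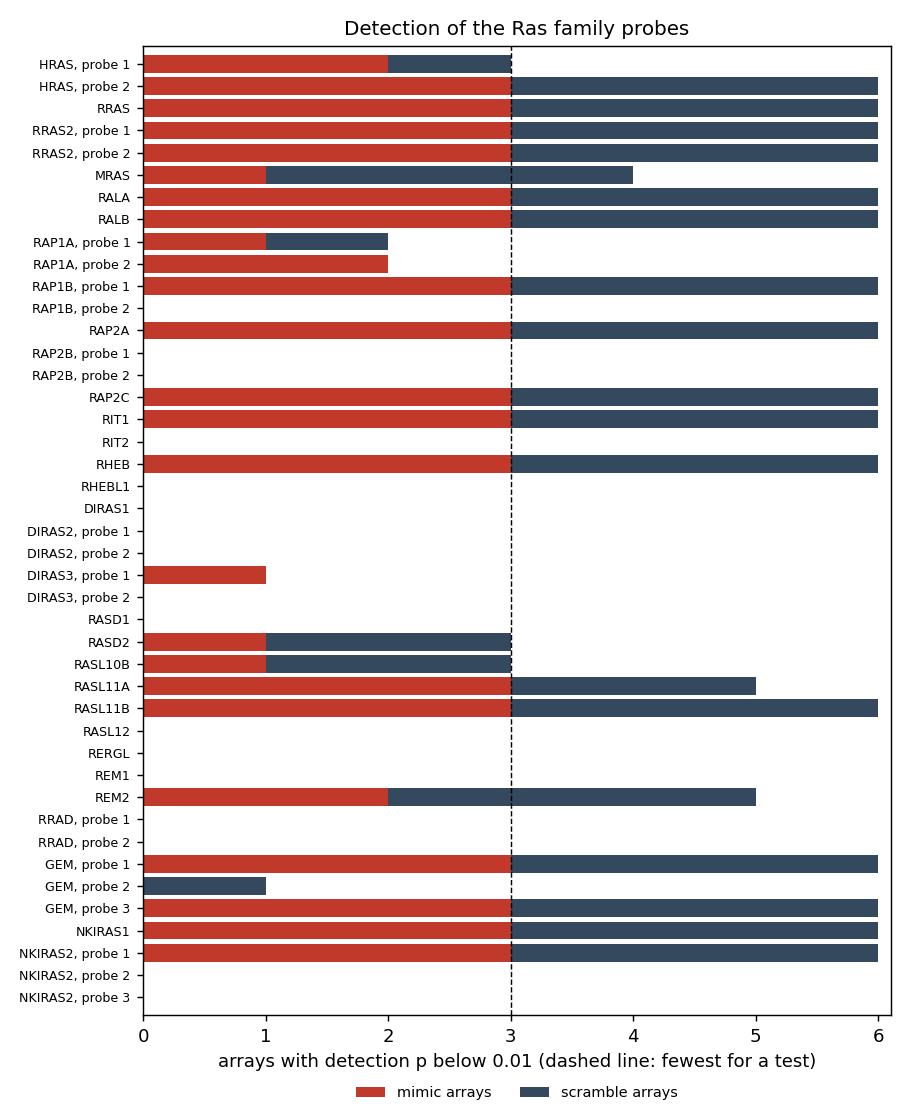
Number of arrays (x axis, up to 6) with a detection p below 0.01 for each of the 43 probes, mimic arrays first in each bar and scramble arrays after them. Bars that do not reach the dashed line at 3 arrays mark probes that were not tested, and 17 probes have no bar.

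Among the 19 tested genes, 6 rose with the mimic, 2 fell and 11 were not called. RASL11B, RRAS2, GEM, RASL11A, RIT1 and RALA rose, and RRAS and RAP2C fell. The share called, 42.1%, is to be read against 35.7% of all 10503 tested genes; 18.4% of these were higher and 17.3% lower. The median log2 fold change of the family was 0.07, against 0.03 over all genes, and the arrays of 9 of the 19 genes did not overlap between groups (47.4%, against 51.4% of all genes). In the share called, the median and the overlap, the family thus lay close to the background, and its members moved in both directions. By direction, 6 of the 19 genes were higher and 2 lower, against 1933 and 1819 of all 10503. Whether that split differs from all genes was not tested. By fold, RASL11B ranked 8 from the top of the 10503 genes, RRAS2 ranked 17 and GEM ranked 221.

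**Figure D2:**
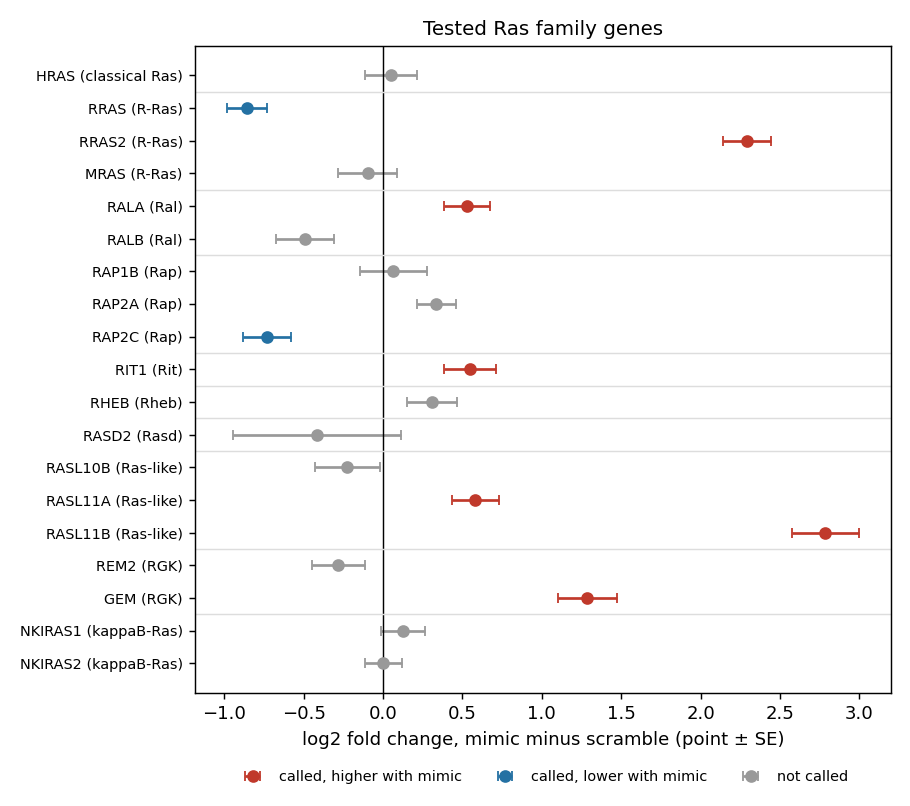
Log2 fold change (x axis, mimic minus scramble) of the 19 tested genes, listed by subfamily, as points with standard errors (3 arrays per group). RASL11B at 2.78 and RRAS2 at 2.29 lie apart from the other members, and 11 genes were not called.

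The classical Ras gene measured was HRAS, a direct activator of RAF kinases. Its brighter probe (ILMN_1773751) was at 10.04, 9.67 and 9.94 on mimic arrays 1 to 3, and at 10.08, 9.66 and 9.76 on the scramble arrays. The groups overlapped and array 2 was lowest in both. The log2 fold change was 0.05 ± 0.16 (SE, n = 3 per group, adjusted p = 0.835), with a 95% interval from -0.32 to 0.43. A dimmer HRAS probe, detected on 2 mimic arrays and 1 scramble array, was not called either (0.15 ± 0.21).

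The R-Ras subfamily split. RRAS2, also called TC21, which signals through phosphoinositide 3-kinase, was at 9.36, 9.05 and 9.28 with the mimic, against 6.98, 6.73 and 7.09 with scramble. Every mimic array lay far above every scramble array. It rose 4.90-fold (log2 2.29 ± 0.15, adjusted p = 0.000118), and its second probe rose 3.68-fold (1.88 ± 0.19, adjusted p = 0.000489). Before normalization the linear intensities of the brighter probe were 876, 632 and 730 with the mimic, against 221, 198 and 230 with scramble. In the authors' processed values the log2 fold change was smaller, 1.30, and without background correction it was 1.65; the gene stayed called in both.

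RRAS, which promotes integrin activation and adhesion, was at 9.19, 9.21 and 9.36 with the mimic, against 10.09, 10.22 and 10.02 with scramble. The groups did not overlap. It fell 1.81-fold (log2 -0.86 ± 0.13, adjusted p = 0.00194). These 2 paralogs were thus called in opposite directions; the difference between their changes was not tested. MRAS, the remaining member, whose complex with SHOC2 and a phosphatase activates RAF, was near background: it was detected on 1 mimic array and 3 scramble arrays, and its log2 fold change was -0.10 ± 0.18 (adjusted p = 0.714).

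RALA, which drives exocytosis through the exocyst, was at 12.18, 12.15 and 11.91 with the mimic, against 11.47, 11.44 and 11.75 with scramble. The groups did not overlap, but mimic array 3 and scramble array 3 lay close together. RALA rose 1.44-fold (0.53 ± 0.15, adjusted p = 0.0262). The call was lost without mimic array 1 (adjusted p = 0.0874) or 2 (0.0572) and without scramble array 1 (0.0642) or 2 (0.0802). RALB, its paralog, known for a role with the exocyst in innate signalling and autophagy, was at 9.91, 9.98 and 9.64 with the mimic, against 10.51, 9.98 and 10.51 with scramble. Scramble array 2 lay level with mimic array 2, so the groups were not separate. Its log2 fold change of -0.49 ± 0.18 was not called (adjusted p = 0.0719); it was called lower without scramble array 2 (-0.67, adjusted p = 0.0239), without background correction (-0.45, 0.0382), with an offset of 50 (-0.48, 0.0458) and with a trended, robust variance (0.0343).

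Of the Rap genes, RAP2C fell. This member of the Rap2 group, which binds the kinases TNIK and MAP4K4, was at 8.72, 9.09 and 8.67 with the mimic, against 9.67, 9.48 and 9.51 with scramble. The groups were separate, with mimic array 2 the nearest to scramble. The fall was 1.66-fold (log2 -0.73 ± 0.15, adjusted p = 0.00840). RAP2A, its paralog, was at 9.16, 9.26 and 9.30 with the mimic, against 8.83, 9.0 and 8.89 with scramble. Its arrays also did not overlap, yet the log2 fold change of 0.33 ± 0.12 missed the threshold (adjusted p = 0.0664). It was called without background correction (adjusted p = 0.0312), with median scaling (0.0222) and in the authors' processed values (0.0202). RAP1B, which tightens cell contacts and activates integrins, gave 0.07 ± 0.21 (95% interval from -0.42 to 0.55).

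RIT1, which feeds the MAP kinase pathway, was at 9.80, 9.26 and 9.57 with the mimic, against 9.10, 9.0 and 8.89 with scramble. Mimic array 2 was the lowest of its group and still above the scramble arrays. RIT1 rose 1.46-fold (0.55 ± 0.16, adjusted p = 0.0342). That call was lost without mimic array 1 (adjusted p = 0.112) or 3 (0.0976), without scramble array 2 (0.0791) or 3 (0.102), and without a filter on dim probes (0.0695). RHEB, the direct activator of mTORC1, was at 11.97, 11.87 and 12.09 with the mimic, against 11.97, 11.50 and 11.54 with scramble. Mimic array 1 and scramble array 1 had the same value, and the change of 0.31 ± 0.16 was not called (adjusted p = 0.172; 0.0436 without scramble array 1).

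RASL11B, an atypical Ras-like GTPase, had the largest fitted fold of the 19 genes. It was at 10.66, 10.81 and 10.75 with the mimic, against 8.41, 7.91 and 7.55 with scramble. The mimic arrays agreed within 0.08 (SD), whereas the scramble arrays spread over an SD of 0.43. The rise was 6.89-fold (log2 2.78 ± 0.21, adjusted p = 0.000193). Linear intensities before normalization were 1988, 1897 and 1838 with the mimic, against 430, 322 and 276 with scramble. The authors' processed values gave 2.10.

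Its close relative RASL11A, which is described as a chromatin-bound modulator of ribosomal RNA synthesis, also rose, by less and near background. It was at 6.08, 5.96 and 6.01 with the mimic, against 5.22, 5.67 and 5.42 with scramble, with detection on 3 mimic arrays and 2 scramble arrays. The rise was 1.50-fold (0.58 ± 0.15, adjusted p = 0.0182). In the authors' processed values it was 0.12 and not called (adjusted p = 0.140), and without background correction 0.20 (0.0917). The call was also lost without mimic array 1 (0.0641) or 3 (0.0559) and without scramble array 3 (0.0541). RASL10B was detected on 1 mimic array and 2 scramble arrays and was not called (-0.23 ± 0.21).

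**Figure D3:**
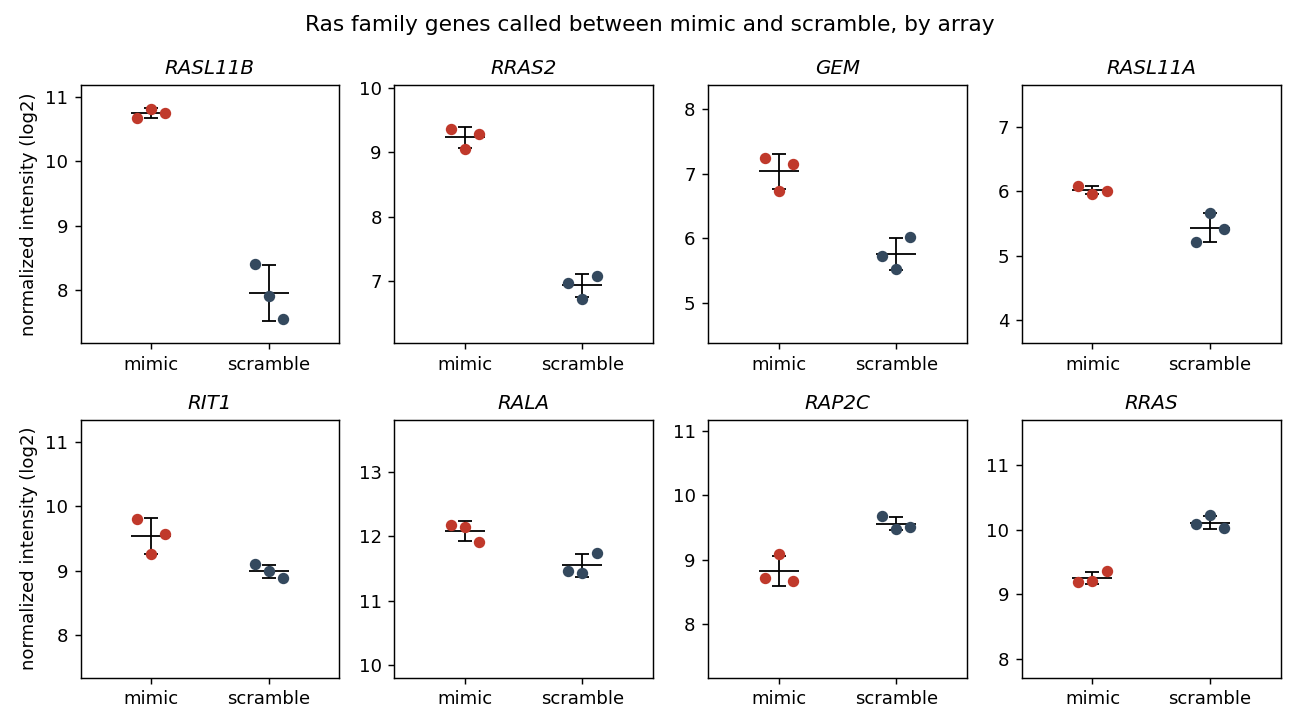
Normalized log2 intensity (y axis, spanning 4 log2 units in every panel) on each array for the 8 called genes, with 3 mimic arrays to the left and 3 scramble arrays to the right. Dots are arrays, long dashes are group means and bars are SDs; RASL11B at 10.66 to 10.81 and RRAS2 at 9.05 to 9.36 with the mimic stand farthest from their scramble arrays.

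GEM, an RGK protein that inhibits voltage-gated calcium channels, was at 7.24, 6.73 and 7.16 with the mimic, against 5.72, 5.52 and 6.02 with scramble. All mimic arrays lay above all scramble arrays. It rose 2.44-fold (1.29 ± 0.19, adjusted p = 0.00191), and a second probe rose 2.09-fold (1.06 ± 0.21, adjusted p = 0.00683). The remaining GEM probe was detected on scramble array 2 alone and was not tested. The size of the rise depends on how the background is treated, since the log2 fold change was 0.59 without background correction, and still called. In the authors' processed values, whose transform is unknown, it was 0.37 and called. REM2, another RGK gene, was detected on 2 mimic arrays and 3 scramble arrays and was not called (-0.28 ± 0.17, adjusted p = 0.225).

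The kappaB-Ras genes NKIRAS1 and NKIRAS2, whose proteins slow the loss of NF-kappaB inhibitors, were not called. NKIRAS2 was at 9.79, 9.81 and 9.84 with the mimic, against 9.78, 9.87 and 9.78 with scramble. The groups overlapped almost fully, and the log2 fold change of 0.00202 had a 95% interval from -0.26 to 0.27. For NKIRAS1 the interval ran from -0.19 to 0.44. RASD2, which encodes Rhes of the striatum, was not called (-0.42 ± 0.53). It was at 4.55, 6.17 and 4.76 with the mimic, against 4.54, 6.26 and 5.94 with scramble, so array 2 was high in both groups and array 1 low in both.

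**Figure D4:**
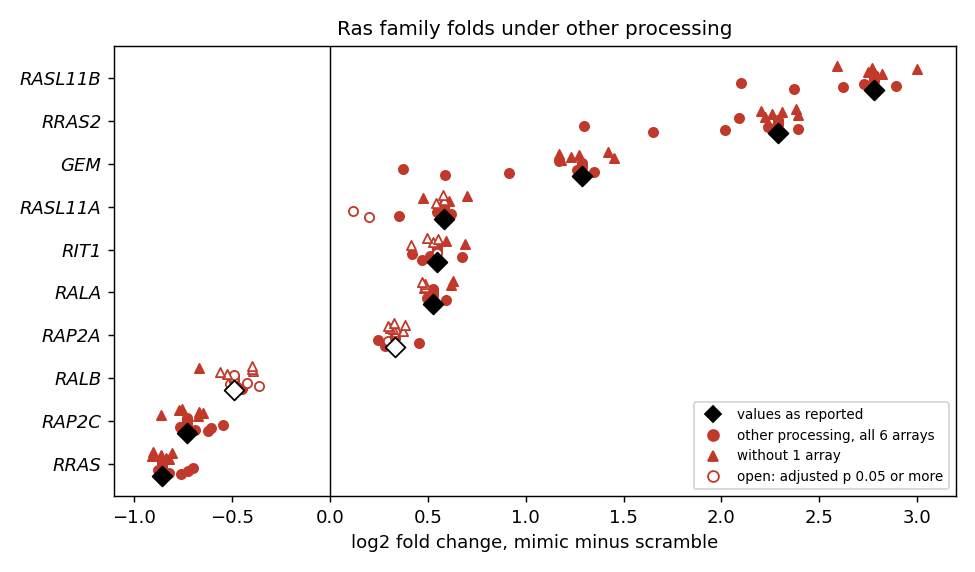
Log2 fold change (x axis, mimic minus scramble) of the 8 called genes and of RAP2A and RALB as reported (diamonds), under 10 other ways of processing all 6 arrays (circles) and without 1 array (triangles), with open symbols where the adjusted p was 0.05 or more. RASL11B, RRAS2, GEM, RAP2C and RRAS have filled symbols throughout, while GEM spans 0.37 to 1.45.

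The genes that load, unload and read Ras proteins were taken from 4 lists. Exchange factors had 14 tested genes of 22 listed, of which 4 rose, 1 fell and 9 were not called (median 0.23). RASGRP1, an exchange factor for Ras that diacylglycerol recruits, was at 8.28, 8.04 and 8.39 with the mimic, against 6.13, 6.05 and 6.12 with scramble. It rose 4.39-fold (2.14 ± 0.13, adjusted p = 0.000109; 0.88 in the authors' processed values). The Ral exchange factors RGL1 (1.08 ± 0.21) and RALGPS2 (0.77 ± 0.19) also rose; RALGPS2 lost its call without mimic array 1 (adjusted p = 0.0519) or scramble array 2 (0.0530). RAPGEF2, which loads Rap proteins, fell 2.08-fold (-1.06 ± 0.12). SOS1, the exchange factor recruited to receptors by GRB2, is the fourth that rose (0.62 ± 0.14) and was named after its value was seen.

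GTPase-activating proteins had 16 tested genes of 22, of which 2 rose, 3 fell and 11 were not called (median 0.27). SIPA1, which switches off Rap, was at 4.67, 5.37 and 4.76 with the mimic, against 6.53, 7.63 and 7.30 with scramble. It fell by 2.22 on the log2 scale (SE 0.30, adjusted p = 0.00135). The probe was detected on 1 mimic array, so the size is uncertain, and the authors' processed values gave -0.58. Detected on 3 scramble arrays, it entered the test mainly through the group where it was higher. Its call is thus weak support for the count. A second SIPA1 probe, detected on no mimic array and 2 scramble arrays, was not tested. That probe was at 4.81, 4.74 and 4.92 with the mimic, against 4.49, 6.17 and 6.16 with scramble. RAP1GAP, another Rap inactivator, was lower by -1.21 ± 0.34; the call was lost without mimic array 1 (adjusted p = 0.0752) or 3 (0.0832), without scramble array 2 (0.0834) or 3 (0.0783), and without a filter on dim probes (0.0725).

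RASAL2, which inactivates Ras, rose 2.59-fold (1.37 ± 0.16), with detection on 3 mimic arrays and 1 scramble array. It too entered the test mainly through the group where it was higher, so its call is weak support for the count. The authors' processed values gave 0.31. Its other probes were detected on no array and were not tested. TBC1D7, a subunit of the TSC complex that inactivates RHEB, rose 1.66-fold (0.73 ± 0.13). TSC1, another subunit of that complex, fell by its brightest probe (-0.48 ± 0.12, adjusted p = 0.0163), while 2 dimmer probes were not called (-0.28, adjusted p = 0.121, and -0.60, adjusted p = 0.0909); it was named after its value was seen. Without mimic array 1 or 3 or scramble array 3, 3 genes of this list were called in place of 5. Over all genes the share called was then 24.9%, 23.9% and 25.2% in that order, in place of 35.7%.

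Effectors had 15 tested genes of 23, of which 2 rose, 2 fell and 11 were not called (median -0.08). SHOC2, the scaffold through which MRAS activates RAF, was at 8.50, 8.48 and 8.36 with the mimic, against 10.50, 10.43 and 10.32 with scramble. It fell 3.92-fold (log2 -1.97 ± 0.12, adjusted p = 0.000100). The SD was 0.08 with the mimic and 0.09 with scramble, so the groups lay far apart for their spread. APBB1IP, the Rap1 effector RIAM, rose (0.72 ± 0.17); its call was lost without mimic array 3 (adjusted p = 0.0511) and in the authors' processed values (0.17, adjusted p = 0.0548). TNIK, a kinase bound by RAP2, was counted among those that rose, but it was detected on 3 mimic arrays and no scramble array and so entered the test only through the group where it was higher; its call is no support for the count. It was at least 1.16-fold higher, and without any 1 mimic array it was not tested. Its call was lost without scramble array 2 (adjusted p = 0.0581), without background correction (0.101) and in the authors' processed values (0.168).

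PLCE1, a phospholipase C that Ras and Rap bind, was lower by -0.64 ± 0.21 (adjusted p = 0.0464). That call was lost without any 1 array other than mimic array 3 (adjusted p from 0.0594 to 0.129), with median scaling (0.111) and without a filter on dim probes (0.107). The count of called effectors was 2 without any 1 mimic array or scramble array 2, and 2 in the authors' processed values. Of all genes, 24.9%, 34.6% and 23.9% were called without mimic arrays 1 to 3 in turn, and 26.3% without scramble array 2. The processed values called 36.9% of all genes, against 35.7% as reported.

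Enzymes and carriers of the lipid tail had 14 tested genes of 15, of which 1 rose, 2 fell and 11 were not called (median -0.01). LYPLA1, a thioesterase that removes palmitate from Ras, was at 6.86, 7.0 and 7.07 with the mimic, against 8.64, 8.25 and 8.87 with scramble. The groups were well apart. It fell 3.06-fold (-1.61 ± 0.18, adjusted p = 0.000608; -0.84 in the authors' processed values), and a second, dimmer probe was not called (-1.08, adjusted p = 0.0801). ICMT, which methylates the prenylated C terminus, fell 1.85-fold (-0.89 ± 0.15). FNTA, the alpha subunit shared by farnesyltransferase and the geranylgeranyl enzyme, rose 1.68-fold (0.75 ± 0.17). FNTB, the farnesyltransferase beta subunit, was not called (-0.33 ± 0.12, adjusted p = 0.0729). PGGT1B, the beta subunit of the geranylgeranyl enzyme, was not called by its brightest probe (0.12 ± 0.18). A dimmer PGGT1B probe was called higher (0.62 ± 0.19, adjusted p = 0.0347). Both beta subunits were named after their values were seen.

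**Figure D5:**
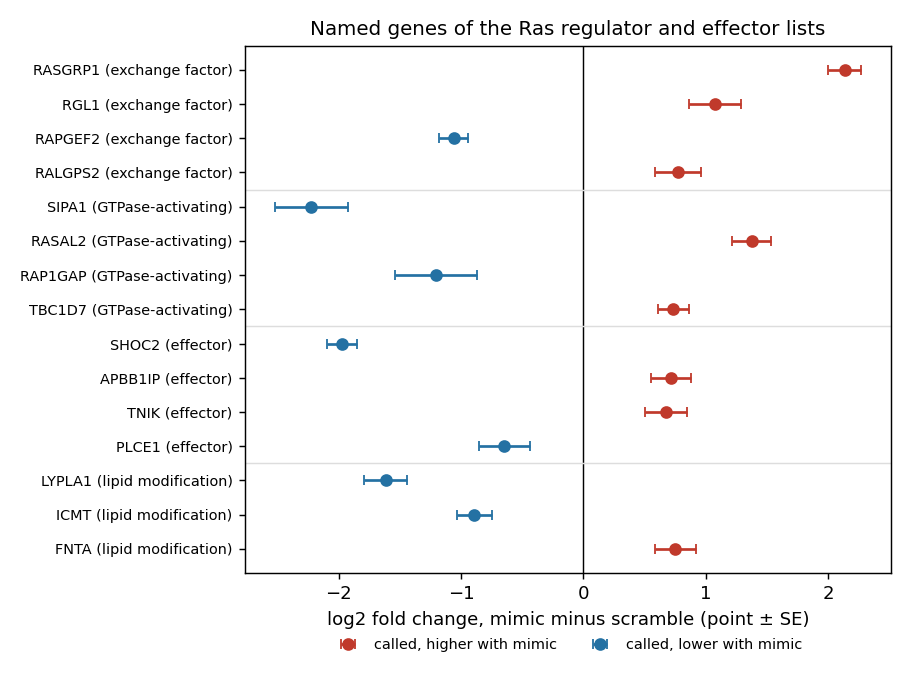
Log2 fold change (x axis, mimic minus scramble) with standard errors for the 15 genes named by rule from the 4 lists (3 arrays per group). RASGRP1 at 2.14 is the highest, and SIPA1 at -2.22 and SHOC2 at -1.97 are the lowest. SIPA1 was detected on 1 mimic array, and without background correction it was at -0.93, against -1.71 for SHOC2 and -1.11 for LYPLA1. TNIK was detected on no scramble array and RASAL2 on 1, so their plotted folds rest on values near background.

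The shares called in these lists were 35.7% for exchange factors, 31.2% for GTPase-activating proteins, 26.7% for effectors and 21.4% for the lipid genes. Each is at or below the 35.7% of all genes. The lists are therefore described by their members, and no list moved in 1 direction.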

How the data were processed

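Expression was measured on 6 Illumina BeadChips, 3 per group, with biotin-labelled cRNA, per the labels' protocols. The deposited non-normalized table gives, per the file headers, each probe's linear intensity and detection p-value by array; of its software nothing is stated in these sources. A further table deposited by the authors holds processed linear intensity values in 6 columns. The column of mimic array 1 has a median of 200.8. The submitters' processing notes name lumi 3.2.2; the transform and centring stay unknown. Each processed column matched the raw array of its sample after probe means were removed (r of at least 0.978, against at most 0.799 for other arrays).

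Background was removed with nec from detection p-values (offset 16), followed by quantile normalization and log2, then lmFit and eBayes in limma 3.58.1 (R 4.3.3). Tests were two-sided, with Benjamini-Hochberg adjustment over the 17104 tested probes, of which 33.9% were called. Errors of fold changes are standard errors. The number of arrays limits precision, and folds near background are unstable. Where 1 group never detected a probe, the fold is a lower bound against the higher of its own value and the lowest detected value on each array. Symbols were updated by Entrez identifier: 30113 probes carried a single symbol, 8 carried several, and 17201 lacked an entry.

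The members and lists were chosen with earlier results of these data known. Named genes are all members and, from each list, up to 4 called genes with separate groups and the largest fold. Within-group deviations of same-numbered arrays correlated at 0.36, 0.45 and -0.11. Arrays of different number were not compared in this way, so these values do not settle whether the numbers mark pairs. The main fit did not take them as pairs, and the replicate block is among the alternatives. Alternatives were other background, normalization, filter and variance settings, the processed values, the replicate block, the probe mean and leaving out each array.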

Additional observations from a re-analysis of the deposited data

How the results depend on the processing

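The calls of RASL11B, RRAS2, GEM, RRAS and RAP2C held under all 16 alternatives, with log2 fold changes from 2.10 to 3.00, from 1.30 to 2.39, from 0.37 to 1.45, from -0.91 to -0.70 and from -0.86 to -0.55. The report gives the alternatives under which RALA, RIT1 and RASL11A lost their call; the cause was not tested. Without 1 array the family had 3 to 6 genes called higher (3 without mimic array 1) and 2 to 3 lower, and 7 to 10 probes called. Over all genes 2466 to 3558 were then called, against 3752 with all arrays, the lowest without mimic array 3. Called genes numbered 4 to 6 for exchange factors, 3 to 6 for GTPase-activating proteins, 2 to 4 for effectors and 3 for lipid genes in each case. The authors' processed values called 2 effectors and 36.9% of all genes. Signs turned in genes that were not called. HRAS ran from -0.0376 to 0.172 without 1 array (below 0 without mimic array 1, at -0.0255, or scramble array 2), MRAS from -0.25 to 0.0266 (above 0 without mimic array 3 or, at 0.0223, scramble array 3) and RAP1B from -0.181 to 0.204 (below 0 without scramble array 2). NKIRAS2 ran from -0.0135 to 0.0333 (below 0 without mimic array 3, at -0.00946, or scramble array 1 or, at -0.0132, 3) and was at -0.00338 with cyclic loess. With median scaling, tested probes had a median log2 fold change of 0.102 (0.0249 as reported) and the calls over all genes were 2383 higher and 1431 lower, against 1933 and 1819; it changed the calls of RAP2A and PLCE1 among the named genes. Without a filter on dim probes RHEBL1 was called lower, though no array detected it. With the replicate number as a block 4260 genes were called, among them the same 6 higher and 2 lower family members, and no named gene changed its call. Folds of probes near background, such as those of RASL11A, SIPA1, RASAL2 and TNIK, are limited by signal over background.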
